A study of Mus musculus with 13 samples.

Results

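The Notch pathway passes signals between touching cells. The receptors Notch1, Notch2 and Notch3 sit in the membrane of the receiving cell, and the ligands Jag1, Dll1 and Dll4 sit in the membrane of its neighbour. Binding leads to cleavage of the receptor, whose inner part enters the nucleus and joins the DNA-binding protein RBPJ at target genes such as Hes1, Hey1 and Heyl, which code for repressors. Lfng is a sugar transferase of the Golgi that modifies the receptors and changes which ligands they answer. In the forming kidney, Notch signals act when progenitors turn into nephron segments, and in blood vessels Dll4 and Notch1 act in sprouting and in the arterial fate.

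The accessibility of these 10 genes was measured by single-nucleus ATAC-seq (snATAC-seq), in which Tn5 transposase tags open DNA, in nuclei of whole mouse kidneys. The samples were 2 at P0, from mice described in the protocol as 1 day old, 1 at P21 and 2 at P56, and P21 and P56 form the adult group. The labels give no strain, genotype or treatment, and do not say that samples of a stage came from separate animals, so p-values measure the spread between these samples only. The comparisons are between the 13 named cell types and between P0 and adult within each of them. Peaks were taken as members when they overlapped the body of a gene or the 2 kb upstream of its start in GENCODE M21 (mm10). This gave 131 of the 300755 peaks of the series. Notch2 had 57 of them, Notch1 28, Jag1 12, Notch3 10, Heyl 7, Dll1, Dll4 and Hes1 4 each, Lfng 3 and Hey1 2. Most, 83 peaks or 63.4%, lay in introns, 22 over coding exons, 8 over the start of the gene, 7 over the start of another transcript and 4 upstream. The windows of non-coding genes also hold 22 of the peaks, and no window of another protein-coding gene holds any.

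The 5 samples hold between 3361 and 7129 nuclei and between 16980853 and 43794155 open calls, an open call being a nucleus with a given peak open. Of all nuclei, 27652 are in the 13 cell types and 664 in other clusters. Among 27834 distinct barcodes, 477 occur in more than a single library, with 24 to 73 shared by any pair. Depth per nucleus differed between samples and cell types. An endothelial nucleus had a median of 7195.5 and 6508.5 open peaks at P0 and of 2099, 2441.5 and 2306 in adult, while in the proximal convoluted tubule P56 sample 2, with 7466, was deeper than both P0 samples, with 7128 and 5420. A share of nuclei with a gene open rises with that depth. Levels are therefore given mainly as CPM, the open calls of a gene in each 1000000 open calls of the same cell type and sample, with shares beside them. A thinned share is the share expected if each nucleus had 1000 open peaks. CPM is summed over a gene's whole window, so it is compared between cell types and not between genes.

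The cell type labels were checked with marker lists summed in CPM. The 8 endothelial markers gave 1525 to 1578 in endothelium at P0 and 2198 to 2526 in adult, against at most 508 in any other cell type and sample. The 6 progenitor markers (Six2, Cited1, Uncx, Eya1, Osr1, Meox1) gave 277 to 279 in the nephron progenitor (NP) cluster at P0 and 34.6 to 79.2 in adult. That adult range overlaps those of other cell types, such as 66.0 to 88.2 in adult podocytes. Six2 was at 56.8 and 56.6 CPM in NP at P0 and at 0, 0 and 2.71 in adult, while Uncx was at 47.1 and 45.9 at P0 and kept 8.65, 30.5 and 24.4 in adult, above its 3.88 to 5.99 CPM in adult loop of Henle nuclei. Cited1 had 4.32, 9.14 and 8.14 CPM in the adult nuclei of this cluster and 10.2, 12.3 and 5.25 in adult loop of Henle nuclei. The adult nuclei of the cluster labelled NP, 52, 90 and 53 by sample, thus had a lower sum of the markers of the label than at P0, and they are called the adult NP cluster below.

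Sequences that match the core of the RBPJ site, TGGGAA on either strand, are shown for targets, Lfng and Dll4, because RBPJ is the factor that brings the cleaved receptor to DNA. All 3 matches of Hes1 are shown, and for each other gene a single example out of 3 in Hey1, 13 in Heyl, 5 in Lfng and 2 in Dll4. The examples were chosen by hand after the values were seen. Capitals mark the core. Positions are mm10, and each is read 5′ to 3′ on the strand given.
Hes1, peak 1.03 kb after the gene start, chr16:30065248-30065291, plus strand: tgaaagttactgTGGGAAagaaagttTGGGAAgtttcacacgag
Hes1, peak over the gene start, chr16:30064126-30064155, minus strand: tgtgctcgagccTGGGAAaaccccgccccc
Hey1, peak over the gene start, chr3:8667414-8667443, plus strand: cgccgcgggccgTGGGAAagtgccggcgcc
Heyl, peak 6.35 kb after the gene start, chr4:123239630-123239659, plus strand: cgctccggcccgTGGGAAgcggcggcatct
Lfng, peak over the gene start, chr5:140607221-140607250, plus strand: ccgtatcccacgTGGGAAggagagatctcc
Dll4, peak 1.58 kb after the gene start, chr2:119327326-119327355, plus strand: ttatttttggcgTGGGAAcgcggggagcac
The cores of the Hes1 pair have the same orientation and are 8 bases apart, and the peak lies over the start of another Hes1 transcript. After the pair, the same stretch also holds ttcacac, which is the variant GTGTGAA on the minus strand and is not in capitals. In the central 300 bp of the peaks, TGGGAA was found in 45 of 131 member peaks, 34.4%, and in 27.4% of all 300693 peaks with sequence. With a G before the core, GTGGGAA, which is a subset of these matches, the shares were 11.5% and 6.85%, and for the variant GTGTGAA 3.05% and 4.94%. Member peaks had a median GC content of 52.3%, against 46.7% for all peaks, and the part of GC content in the difference was not tested. Over whole peaks, 69 of the 131 held 125 matches, with 41 in Notch2, 26 in Notch1, 20 in Jag1 and 13 in Heyl. A match is a run of letters and not a bound site.

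Among the receptors, Notch1 was most accessible in endothelium. In P0 samples 1 and 2, the P21 sample and P56 samples 1 and 2, it had 338, 365, 395, 416 and 426 CPM there. Immune nuclei had 254, 223, 284, 155 and 153 CPM and came next in both P0 samples and the P21 sample. Stroma 1 came next in P56 sample 1 and the adult NP cluster in P56 sample 2. The lowest endothelial value was above the highest value of any other cell type. Podocytes had the lowest mean in adult, 74.7 CPM ± 46.2 (SD, n = 3 samples), and P56 sample 2 with 128 CPM stood apart from 51.9 and 44.2 in the other adult samples. In P56 sample 2 the connecting tubule was lowest. The share of endothelial nuclei with a Notch1 peak open was 82.6% and 82.0% at P0 and 56.6%, 66.4% and 66.8% in adult, a direction opposite to that of the CPM, beside the lower adult depth given above. Thinned to 1000 open peaks, the shares were 28.2% and 30.4% at P0 and 34.1%, 36.2% and 36.6% in adult. By unthinned share endothelium led in 3 of 5 samples for this gene, and by thinned share and by CPM in all 5.

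**Figure D1:**
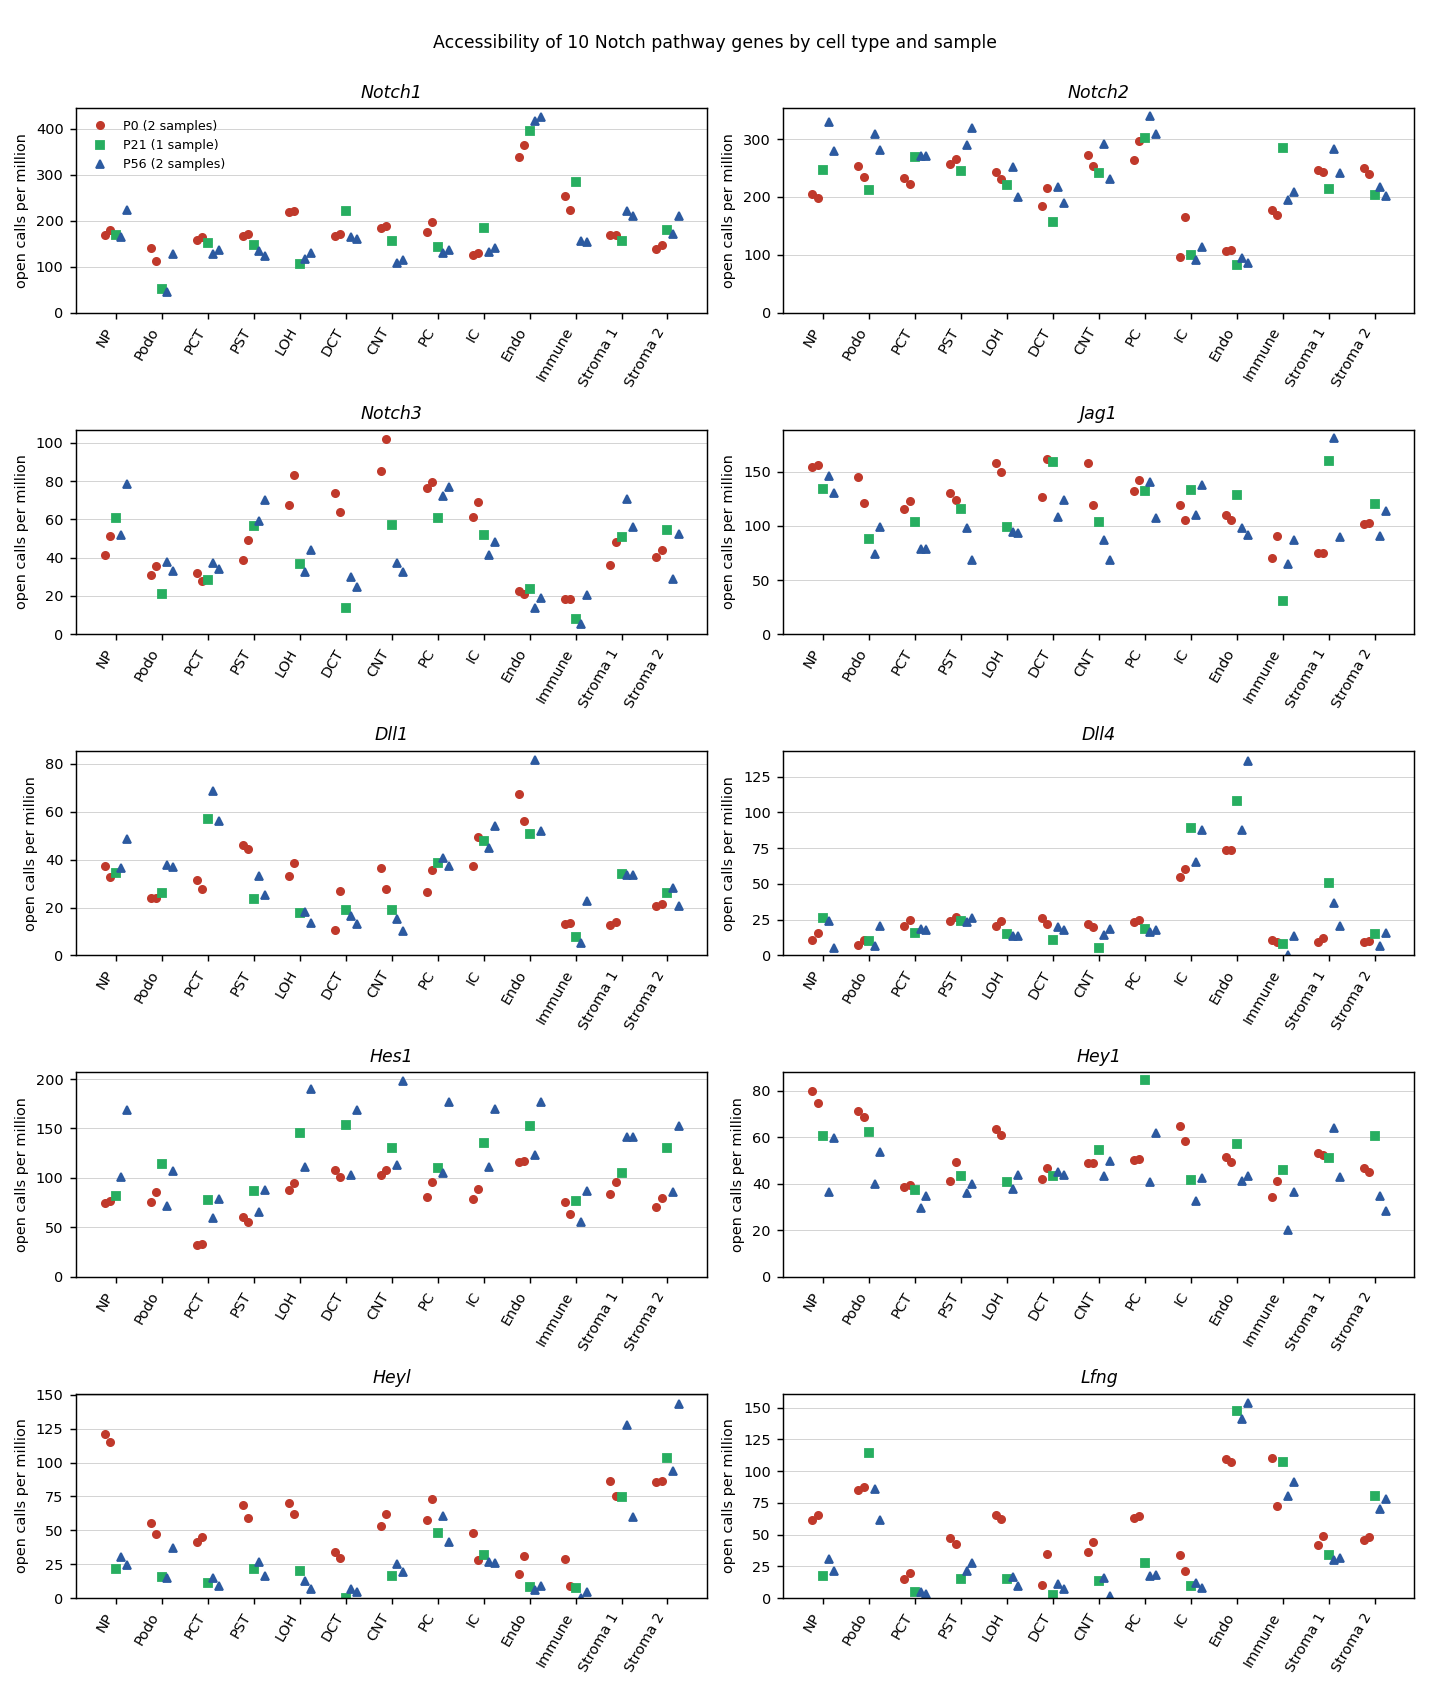
Accessibility of each of the 10 genes in CPM (vertical axis, from 0) in 13 cell types, with 1 point per sample for P0 (circles), P21 (squares) and P56 (triangles). The 5 endothelial values of Notch1, from 338 to 426, lie above all others of that gene, Dll4 is high in endothelium and intercalated cells, and Heyl and Lfng are higher at P0 than in adult in most nephron cell types.

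Several peaks inside Notch1 were highest in endothelium. The peak 41.3 kb into the gene (chr2:26474992-26475700) was open in 37.2% and 35.4% of endothelial nuclei at P0 and in 19.9%, 24% and 26.7% in adult, with a mean of 28.6% over the 5 samples. The next cell type, immune nuclei, had a mean of 5.97%, and its 5 values from 1.98% to 10.5% were all below the endothelial ones. The peaks 15.7, 23.1 and 25.6 kb into the gene were also highest in endothelium in each of the 5 samples by thinned share. Immune nuclei had a peak of their own 32.9 kb into the gene (chr2:26483397-26484044), open in 24.2%, 21.1%, 13.3%, 8.33% and 9.90% of them, sample by sample. It was open in 0.388% and 0.299% of NP nuclei at P0 and in 1.92%, 4.44% and 5.66% of the adult NP cluster. The peak 34.3 kb into the gene had the reverse profile. It was open in 32.5% and 29.1% of proximal convoluted tubule (PCT) nuclei at P0 and in 36.8%, 20.8% and 39.6% in adult, and in 2.39% to 4.85% of endothelial nuclei. A peak 54.6 kb into the gene, over a coding exon, was highest in stroma 2. The most open start peak, over the start of another transcript 12.7 kb inside the gene, had 23.8%, 27.4%, 13.6%, 9.41% and 15.1% in endothelium. By share the proximal straight tubule (PST) led at it in 2 of 5 samples, and by thinned share endothelium led in 2 of 5. At the peak over the annotated gene start, with 9.46%, 8.74%, 3.17%, 7.58% and 3.48% in endothelium, endothelium led in 2 of 5 by either measure.

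**Figure D2:**
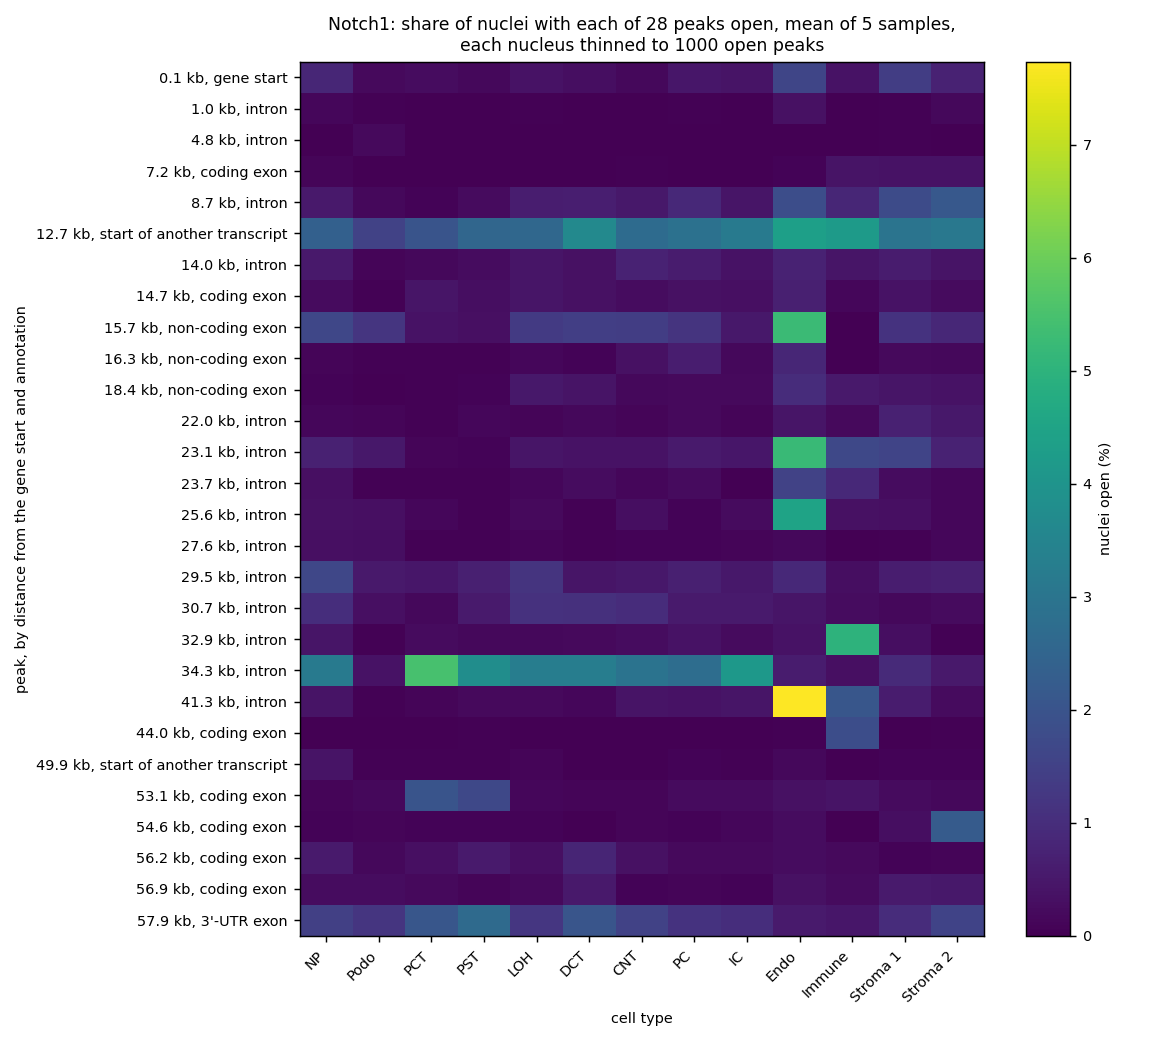
Mean thinned share of nuclei with each of the 28 Notch1 peaks open (colour, percent) in 13 cell types (columns), with peaks ordered along the gene by distance from its start in kb (rows). The brightest field is the peak at 41.3 kb in endothelium, the peak at 32.9 kb stands out in immune nuclei, and the peak at 34.3 kb is open across tubule cell types and low in endothelium.

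Notch2 had another order of cell types. Endothelium was low, with 107, 108, 82.5, 94.2 and 85.8 CPM, and intercalated cells (IC) had 95.6, 166, 99.2, 90.7 and 113 CPM. These 2 overlapped and were below each of the other 11 cell types in their mean at both stages. Principal cells (PC) were at the top, with 264, 297, 302, 340 and 309 CPM, and led in 3 of 5 samples, while the connecting tubule (CNT) with 272 CPM was above them in P0 sample 1 and PST with 320 in P56 sample 2. The gene start peak (chr3:98013187-98014448) was open in 18.9%, 23.8%, 19.1%, 15.9% and 33.3% of podocytes. The peak 61.6 kb into the gene was highest in endothelium in all 5 samples by thinned share although the gene as a whole was low there, with 22.8% and 16.7% of nuclei at P0 and 4.07%, 10.3% and 4.87% in adult. The peak 27.7 kb in was highest in podocytes in all 5, at 7.64% to 12.8%. Over a coding exon 93.3 kb in, PST had the largest gap to the next cell type, 15.7% against 5.76% in PC as means of 5 samples, and PST led there in 5 samples by share and in 3 by thinned share.

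Notch3 was led by CNT in both P0 samples, by PC in the P21 sample and P56 sample 1, and by the adult NP cluster in P56 sample 2. CNT had 85.4 and 102 CPM at P0 and 57.1, 37.2 and 32.7 in adult, and PC had 76.2, 79.5, 60.7, 72.3 and 76.7. The adult NP cluster had 60.5, 51.8 and 78.7, which overlaps PC. Endothelium, with 13.7 to 23.8 CPM, and immune nuclei, with 5.01 to 20.6, were lowest in both stages and did not differ beyond their spread. The annotated gene start carries no peak. The peak nearest to it lies 0.22 kb upstream, and the start of another transcript, 33.2 kb inside the gene, has a weak peak with at most 2.68% in PST. The peak with the largest gap lay over a coding exon 44.2 kb into the gene (chr17:32122060-32123142). It was open in 10.8%, 8.93%, 23.7%, 24.4% and 47.0% of PST nuclei, and in 4.20%, 2.87%, 7.41%, 8.82% and 14.7% of PCT nuclei. PST was above every other cell type in each sample there.

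Of the ligands, Jag1 was broad. Its start peak (chr2:137116289-137117947) was open in 51.0%, 61.4%, 37.6%, 19.9% and 47.7% of distal convoluted tubule (DCT) nuclei and in 38.3%, 45.6%, 23.9%, 15.6% and 30.9% of loop of Henle (LOH) nuclei. No cell type led in more than 2 samples by CPM. Immune nuclei had the lowest mean in adult, 60.9 CPM ± 28.3 (n = 3), while CNT was lowest in P56 sample 2. A peak 17.9 kb into the gene was open in 14.9% and 16% of NP nuclei at P0, and a peak over a coding exon 33.2 kb in was highest in stroma 2, with 7.67% against 2.45% in NP as means of 5 samples. Dll1 was highest in endothelium in 3 of 5 samples by CPM, with 67.5, 56.1, 50.8, 81.5 and 51.9, and PCT overlapped it in adult, with 56.9, 68.8 and 56.2. The Dll1 peak with the largest gap between cell types lies 3.57 kb after the start (chr17:15373092-15373509). It was open in 12.8%, 12.1%, 4.07%, 8.57% and 6.50% of endothelial nuclei and in at most 3.57% of PST nuclei, the next cell type. The peak 0.65 kb after the start was open in more endothelial nuclei in 3 of the 5 samples, with 20.8%, 18%, 7.24%, 7.44% and 5.34%.

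Dll4 was highest in endothelium and IC, and by share of nuclei these 2 led at different peaks. Endothelium had 73.6, 73.4, 108, 87.9 and 136 CPM and IC 54.6, 60.4, 89.3, 65.3 and 87.9, with endothelium higher in each sample. The other 11 cell types were at 51.0 CPM or less in each sample. The peak over the gene start (chr2:119324829-119326132) was open in 32.5%, 33.9%, 41.5%, 21.7% and 47.3% of IC nuclei and in 28.2%, 24.5%, 14.9%, 11% and 21.8% of endothelial nuclei. IC led there in all 5 samples by share, and in 3 by thinned share. By thinned share endothelium led in both P0 samples, with 4.34% and 4.45% against 4.07% and 3.88% in IC. In P56 sample 2 the thinned shares were 8.73% in IC and 8.71% in endothelium. At the peak 1.58 kb after the start (chr2:119326998-119327724), endothelium led in all 5 by either measure, with 22.6%, 22.1%, 14.9%, 11.1% and 17.4%, and IC had 5.00%, 12.5%, 4.26%, 2.26% and 6.38%. The endothelial markers in IC summed to 256 to 283 CPM at P0 and 153 to 204 in adult, against 259 to 270 and 167 to 215 in PC, and their part in the IC signal was not tested. Both peaks also lie in the window of the non-coding gene Gm14207, all 4 Dll1 peaks in that of A930024N18Rik, the Notch3 peak at 44.2 kb in that of Gm17276 and the Lfng start peak in that of Gm43703, and the genes cannot be told apart there.

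Lfng was highest in endothelium, with 110, 107, 148, 141 and 153 CPM, and endothelium led in 4 of 5 samples by CPM and in 5 by thinned share. In P0 sample 1 immune nuclei had 110 CPM as well, and podocytes had 85.3, 87.2, 114, 86.4 and 61.9. In P56 sample 2 immune nuclei and stroma 2 were above podocytes. Podocytes and immune nuclei did not differ beyond their spread. In adult, nephron tubule cells were low, from 4.44 CPM ± 0.754 (n = 3) in PCT to 21.2 ± 6.34 in PST.

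The target genes did not share a common order. By means over samples, Hes1 at P0 ran from 32.4 CPM ± 0.680 (n = 2) in PCT to 117 ± 1.08 in endothelium, and in adult from 71.9 ± 10.8 (n = 3) in PCT to 151 ± 27 in endothelium, and PCT was below all others at P0. In adult no cell type led in more than 1 sample, endothelium led in none, and immune nuclei were lowest in the P21 sample and P56 sample 1. Hey1 was highest in NP at P0, 79.9 and 74.9 CPM, with podocytes close below at 70.0 ± 1.91, and no cell type led in more than 2 samples. Heyl changed its leading cell type with stage. At P0, NP led with 121 and 115 CPM, above stroma 2 with 85.8 and 86.7 and stroma 1 with 86.3 and 75.2. In adult the NP cluster had 21.6, 30.5 and 24.4 CPM, stroma 2 had 104, 94.2 and 144 and stroma 1 had 74.8, 128 and 59.6, so stroma 1 led in P56 sample 1 and stroma 2 in the other adult samples. The 8 mural cell markers (Pdgfrb, Rgs5 and others) were at 496 to 602 CPM in stroma 2 at both stages together, and at most 295 in NP. Their sum in stroma 1 is not given here, and the part of these markers in the Heyl levels was not tested. The same cell type was highest in CPM in all 5 samples for 2 of the 10 genes, Notch1 and Dll4, in both cases endothelium. This was so for 14.6% of 16254 protein-coding genes, and for 2.89% with endothelium. Of the 122 member peaks with at least 100 open nuclei, 15, or 12.3%, had the same leading cell type in all 5 by thinned share, and 12.9% of all such peaks did. Endothelium led at 7, or 5.74% of the 122, against 3.1% of all such peaks.

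**Figure D3:**
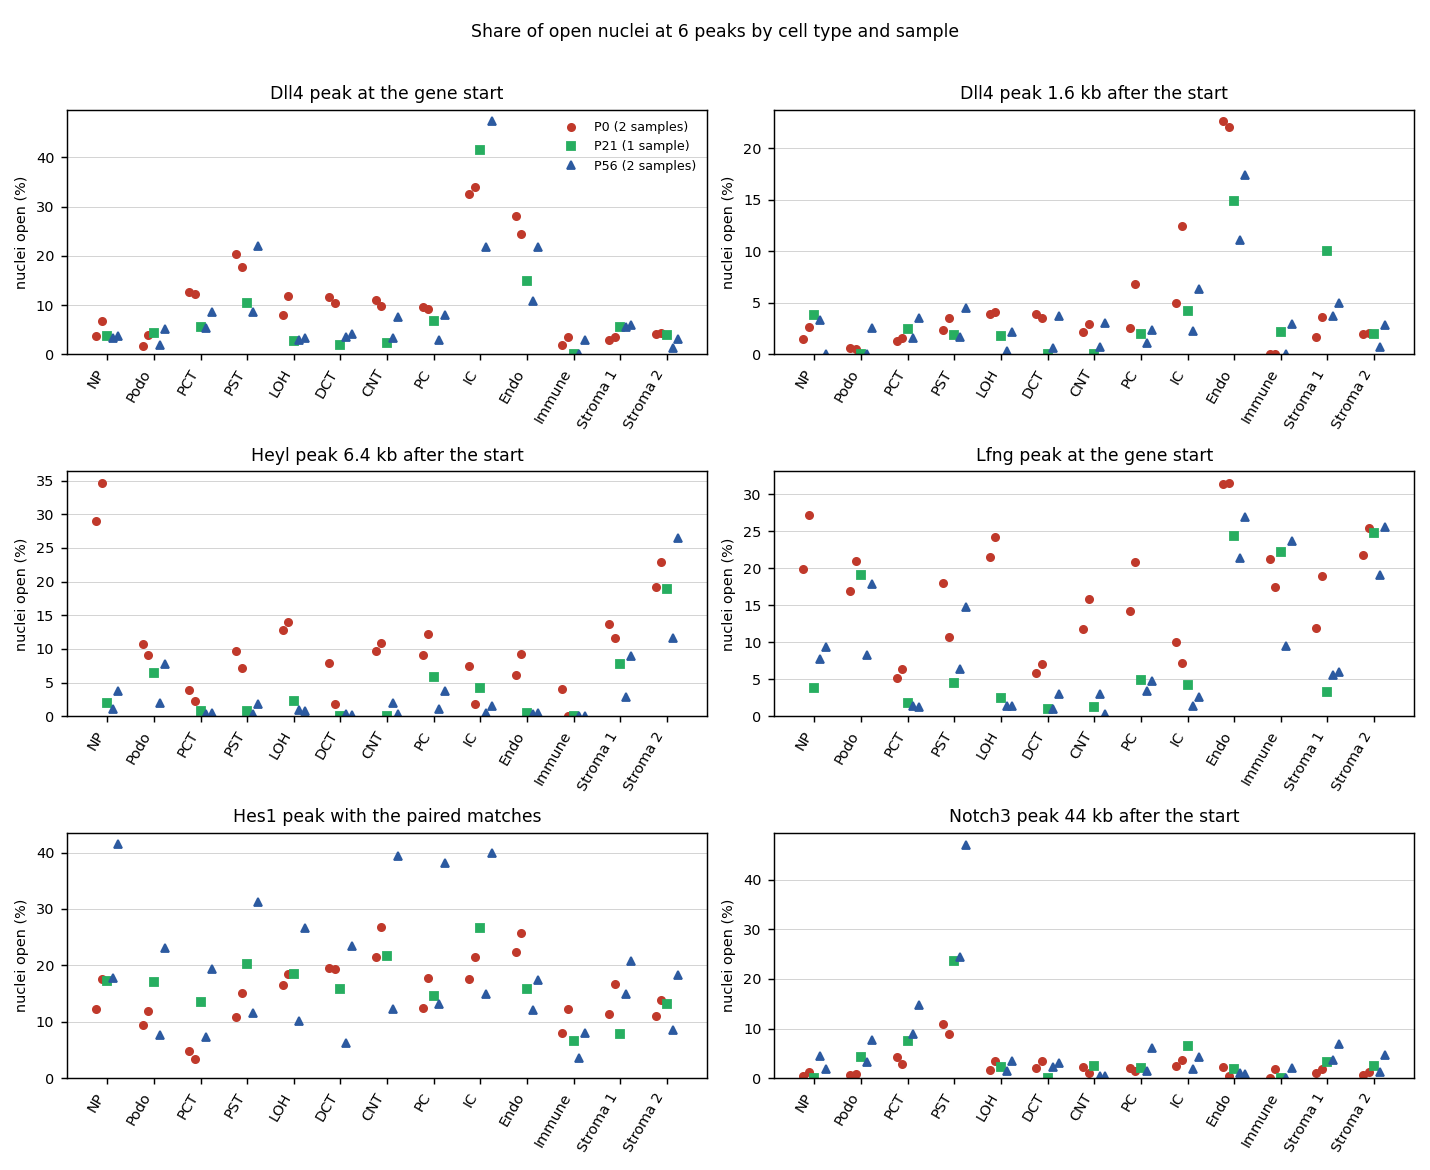
Share of nuclei with a peak open (vertical axis, percent, from 0) at 6 peaks in 13 cell types, with 1 point per sample. The Dll4 start peak is highest in intercalated cells and the Dll4 peak 1.6 kb after the start in endothelium, the Heyl peak reaches 34.6% in nephron progenitors at P0 and at most 3.77% in the adult NP cluster, and the Notch3 peak is highest in PST.

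P0 was then compared with adult within each cell type, which asks how accessibility changes as the kidney matures. Open calls summed per sample were tested with the quasi-likelihood test of edgeR across all genes or peaks, with Benjamini-Hochberg (BH) adjustment at 0.05 within a cell type. The fold change is relative to all open calls of the cell type, so it can go against the unthinned share. For genes, 120 tests of the 10 members could be made, and 30 were higher at P0 (25%) and 14 higher in adult (11.7%). Among all genes and cell types, 13.8% of tests were higher at P0 and 10.5% higher in adult. For peaks, 455 tests of 109 members gave 113 higher at P0 (24.8%) and 54 higher in adult (11.9%), against 18.0% and 16.1% of the tests of all peaks. The other 22 member peaks did not pass the filter on low counts in any cell type. Without P0 sample 1 the genes gave 16 calls higher at P0 and 2 higher in adult, and without P0 sample 2, 21 and 3. The peaks gave 43 and 25 without P0 sample 1, and 56 and 24 without P0 sample 2. Without P56 sample 1 the peaks gave 88 calls higher in adult.

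**Figure D4:**
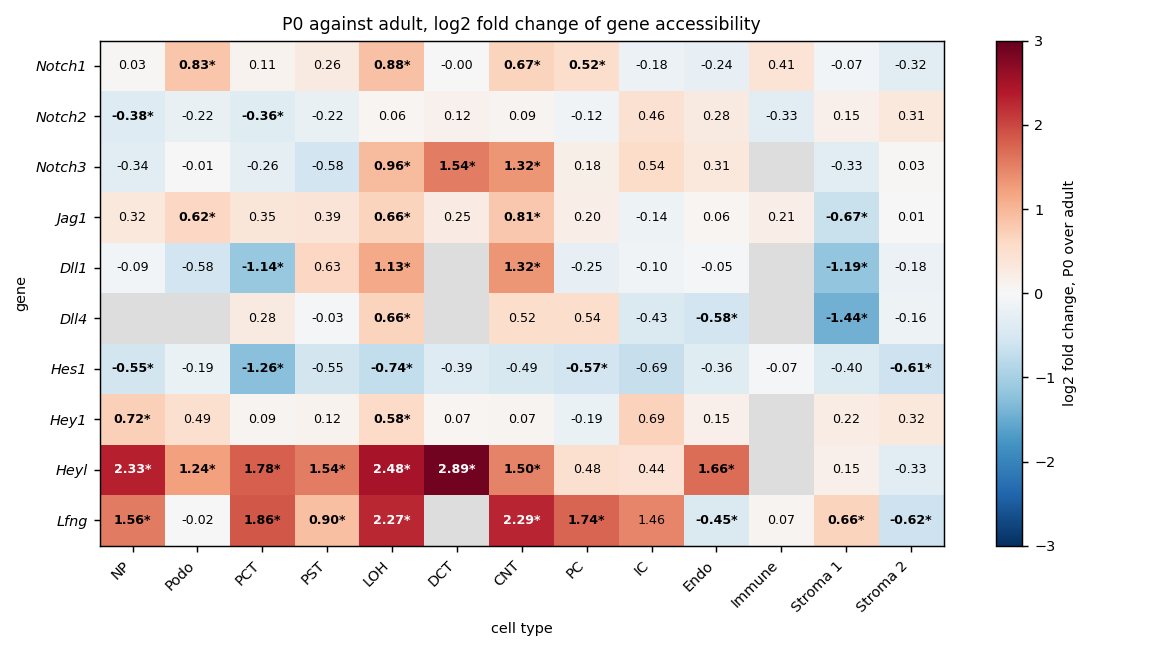
Log2 fold change of gene accessibility, P0 over adult (colour and printed value), for 10 genes (rows) in 13 cell types (columns), with an asterisk where the BH-adjusted p was under 0.05 and grey where the gene was not tested. Heyl is higher at P0 in 8 cell types, Hes1 is higher in adult in 5, and Lfng is higher at P0 in 7 and higher in adult in endothelium and stroma 2.

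Heyl had the most calls higher at P0, in 8 of the 12 cell types tested, and in none was it higher in adult. In LOH it had 70.3 and 62.1 CPM at P0 and 19.8, 12.3 and 7.07 in adult, a log2 fold change of 2.48 ± 0.28 (SE, edgeR adjusted p = 8.37e-05). The P0 values were all above the adult ones there, as they were in NP, where the change was 2.33 ± 0.25 (edgeR adjusted p = 7e-12). Other calls were 1.78 ± 0.22 in PCT and 1.5 ± 0.27 in CNT, and these 4 held under each alternative run. In DCT, Heyl was 34.2 and 29.5 CPM at P0 and 6.61 and 4.20 in the P56 samples, and 0 of 101 nuclei had it open at P21, which allows a share of up to 2.97%. That call (2.89 ± 0.60) was lost without P0 sample 1 (edgeR adjusted p = 0.16) or 2 (0.084). The call in endothelium (1.66 ± 0.34) was lost without P0 sample 2 (1.26, adjusted p = 0.12), and that in podocytes (1.24 ± 0.33) without P0 sample 1 (adjusted p = 0.093), the P21 sample (0.063) or P56 sample 1 (0.85, adjusted p = 0.2). In PST the change of 1.54 ± 0.24 was lost without P0 sample 1 (adjusted p = 0.06). Stroma 1 and stroma 2, where Heyl was high at both stages, had 0.15 and -0.33 with no call.

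The change of Heyl was largest at the peak 6.35 kb after the start (chr4:123239394-123240419). An RBPJ core shown above lies in it, but 6 of the 7 Heyl peaks hold a match. In NP the peak at 6.35 kb was open in 29.0% and 34.6% at P0 and in 1.92%, 1.11% and 3.77% in adult, a log2 fold change of 3.69 ± 0.44 (edgeR adjusted p = 7.51e-16). It was called higher at P0 in 7 cell types, and 18.0% of the tests of all peaks were higher at P0. In stroma 2 the peak was higher in adult (-0.72 ± 0.20), where the shares of 19.3% and 22.9% against 18.9%, 11.6% and 26.5% overlap. In LOH the peak over the 3′-UTR exon 15.7 kb after the start had 6.14% and 5.21% at P0 and 0.508%, 0.288% and 0.221% in adult (3.04 ± 0.51).

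Lfng was called higher at P0 in 7 cell types and higher in adult in endothelium and stroma 2. In LOH it had 65.8 and 62.1 CPM at P0 and 14.7, 16.6 and 9.36 in adult, a log2 fold change of 2.27 ± 0.22 (edgeR adjusted p = 4.26e-05). The changes were 1.86 ± 0.28 in PCT, 1.74 ± 0.21 in PC and 1.56 ± 0.27 in NP, and these 4 held under each alternative run. In CNT the 3 adult values were 13.6, 16.1 and 1.81 CPM against 36.4 and 44.1 at P0 (2.29 ± 0.48), and DESeq2 did not call it (adjusted p = 0.22). The start peak of Lfng (chr5:140606493-140607892) fell in LOH from 21.6% and 24.2% to 2.54%, 1.34% and 1.44% (2.66 ± 0.30, edgeR adjusted p = 1.18e-08). Stroma 2 went the other way, with 45.7 and 48.0 CPM at P0 and 80.8, 70.2 and 78.0 in adult (-0.62 ± 0.13, edgeR adjusted p = 0.00202, and 0.086 and 0.07 without P0 sample 1 or 2). In endothelium the change of -0.45 ± 0.14 was lost without P0 sample 1 (-0.49) or 2 (-0.40). Of the 8 endothelial markers, 7 were also higher in adult there, and their part was not tested. The call in PST (0.90 ± 0.26) was lost without either P0 sample or P56 sample 1 (adjusted p = 0.067), and that in stroma 1 (0.66 ± 0.24) without any 1 of the 5 samples (p from 0.069 to 0.27).

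Hes1 was called higher in adult in 5 of the 13 cell types tested and higher at P0 in none. In PCT it had 31.9 and 32.9 CPM at P0 and 77.2, 59.5 and 79.0 in adult, a log2 fold change of -1.26 ± 0.16 (edgeR adjusted p = 0.00088) that held under each alternative. The P0 values were below all adult values. The peak with the paired RBPJ cores showed the largest change, from 4.75% and 3.41% of PCT nuclei at P0 to 13.5%, 7.32% and 19.3% in adult (-2.05 ± 0.30, edgeR adjusted p = 0.000213). It was called in the same direction in 7 cell types, and 16.1% of the tests of all peaks were higher in adult. Its unthinned shares, which rise with depth, did not overlap between stages in PCT and endothelium. In NP, PC and stroma 2 the gene calls (-0.55, -0.57 and -0.61) were lost without P56 sample 2, with changes of -0.22, -0.23 and -0.39, and without either P0 sample, and in stroma 2 also without the P21 sample (adjusted p = 0.051). In LOH the change of -0.74 ± 0.19 was lost without P0 sample 1 (adjusted p = 0.057). P56 sample 2 had the highest Hes1 level of the 3 adult samples in each of these 5 cell types. Hey1, the third target, was higher at P0 in NP (0.72 ± 0.21) and LOH (0.58 ± 0.15). The NP call was lost without P56 sample 1 (adjusted p = 0.14), and the LOH call without P0 sample 1 (adjusted p = 0.11) or 2 (adjusted p = 0.052).

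Of the receptors, Notch3 was higher at P0 in the distal nephron. It had 67.3 and 83.0 CPM in LOH at P0 and 36.5, 32.4 and 44 in adult (0.96 ± 0.17), and the change was 1.32 ± 0.23 in CNT (edgeR adjusted p = 0.000265), and P0 and adult did not overlap in either. Both calls held under each alternative run, with the LOH change at 0.82 to 1.12 and at 2.70 with promoters only, and the call in DCT (1.54 ± 0.30) was lost without P0 sample 1 (adjusted p = 0.12) or 2 (adjusted p = 0.05). Notch1 was higher at P0 in LOH, with 220 and 222 CPM against 106, 117 and 129 (0.88 ± 0.13, edgeR adjusted p = 0.000316), a call that held under each alternative run, with changes of 0.80 to 1.00 and of 3.88 with promoters only. The changes in CNT (0.67) and PC (0.52) were lost without either P0 sample, and that in PC also with promoters only (0.25, edgeR adjusted p = 0.78). That in podocytes (0.83 ± 0.26) was lost without P56 sample 1 (0.39, edgeR adjusted p = 0.42), P0 sample 1 (0.66) or the P21 sample (edgeR adjusted p = 0.14). Notch2 had calls higher in adult in NP (-0.38 ± 0.15) and PCT (-0.36 ± 0.10), which were both lost without P0 sample 1 (adjusted p = 0.27 and 0.17) or 2 (adjusted p = 0.41 and 0.23), and the NP call also without P56 sample 1 (adjusted p = 0.13).

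Within the receptor genes, peaks moved in opposite directions in the same cell type. This occurred in 11 pairs of a gene and a cell type, all of them in Notch1, Notch2 or Notch3, which hold most of the member peaks and tests, and how often it occurs in other genes was not counted. In NP the Notch1 gene sum was not called (0.03). Its peak 15.7 kb into the gene, however, was open in 18.8% and 27.9% at P0 and in 2.22% and 5.66% at P56, with 0 of 52 nuclei at P21, which allows up to 5.77% (2.92 ± 0.46, edgeR adjusted p = 2e-09). The peak at 34.3 kb rose from 5.33% and 7.86% at P0 to 21.2%, 22.2% and 28.3% in adult (-2.08 ± 0.30, edgeR adjusted p = 4.26e-11). The latter is the peak that was open across the tubule. In Notch2 the peak 38.2 kb in fell in NP from 20.9% and 24.2% to 1.92% and 3.77% in the P21 sample and P56 sample 2, with 0 of 90 nuclei in P56 sample 1, which allows up to 3.33% (3.61 ± 0.53). The peak 11.2 kb in changed from 6.98% and 8.06% to 9.62%, 17.8% and 20.8% (-1.37 ± 0.33, edgeR adjusted p = 0.000167).

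Other cell types showed such pairs as well. In LOH the Notch1 start peak fell from 5.67% and 6.60% at P0 to 0.254%, 0.096% and 0.331% in adult (3.62 ± 0.53, edgeR adjusted p = 1.25e-06). The peak 18.4 kb into the gene rose there from a mean of 0.935% to 2.90% (-2.72 ± 0.48). In stroma 2 the Notch1 peak 54.6 kb in went from 3.51% and 3.93% to 9.22%, 11.4% and 14.8% (-2.63 ± 0.25). The Notch2 peak 47.9 kb in fell from 11.2% and 14.1% to 0.971%, 0.561% and 0.581% (3.31 ± 0.42, edgeR adjusted p = 6.22e-07). The PST peak of Notch3, 44.2 kb in, was higher in adult in PST (-1.90 ± 0.27), PCT (-1.92 ± 0.30), LOH and stroma 2, while in LOH the peak just upstream of the gene start fell from 7.72% and 9.05% to 0.761%, 0.672% and 0.663% (2.43 ± 0.40). In stroma 2 the call at the 44.2 kb peak was lost without P0 sample 1 (adjusted p = 0.11).

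**Figure D5:**
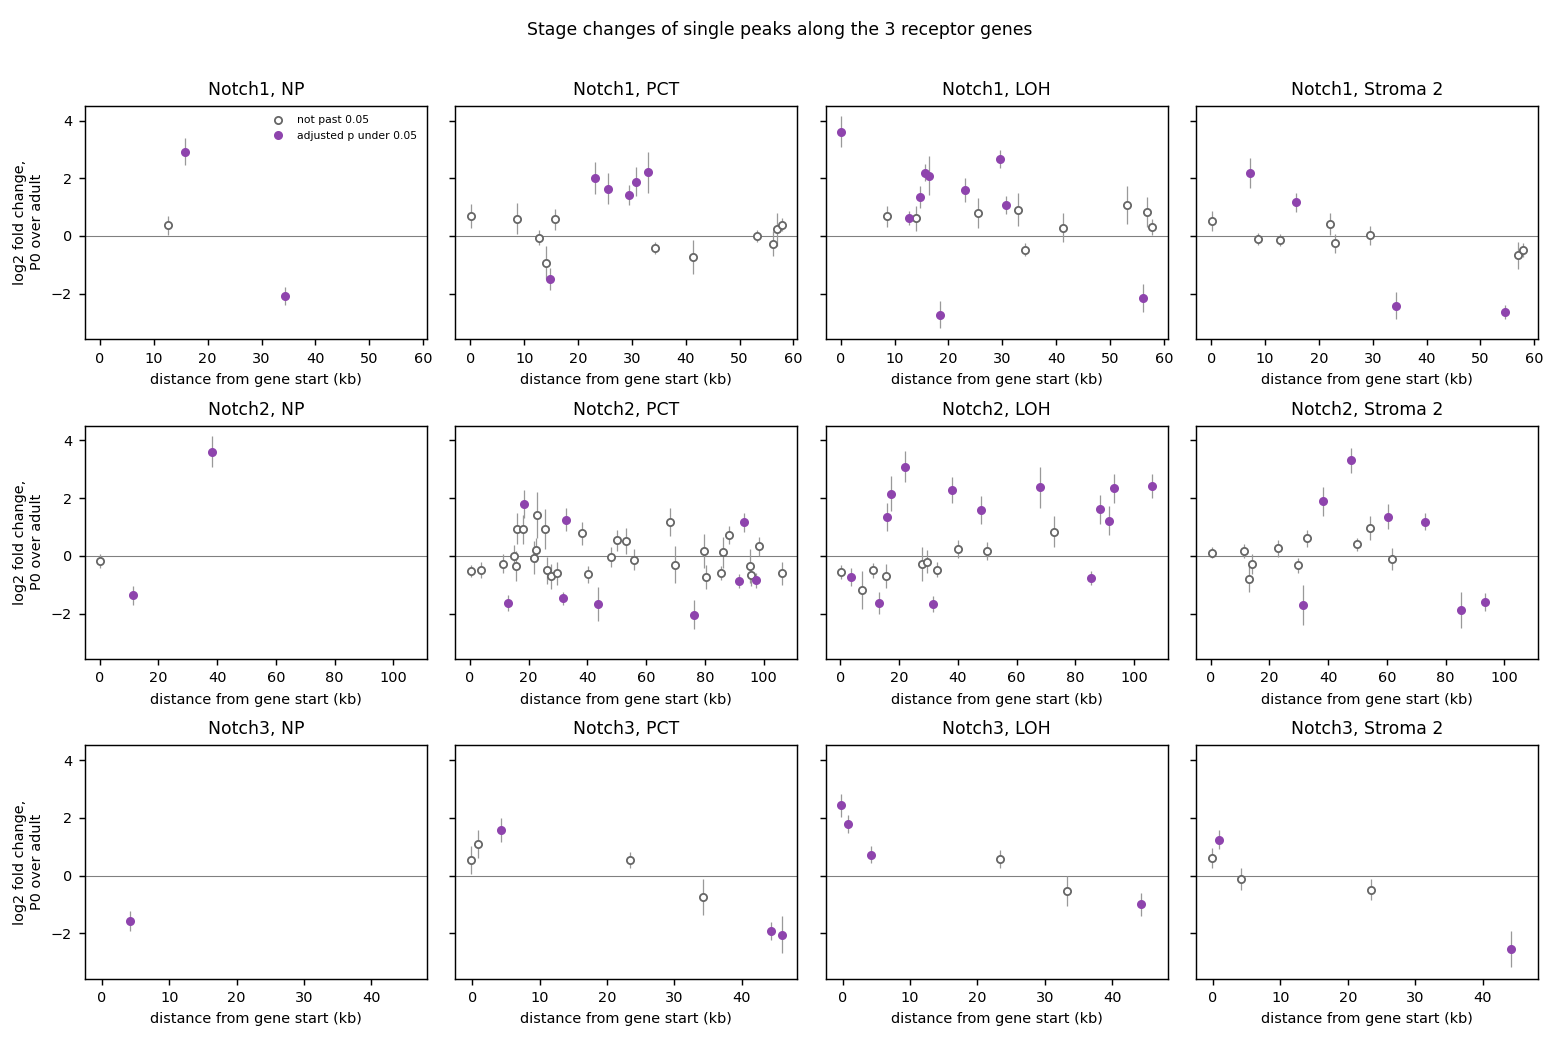
Log2 fold change of single peaks, P0 over adult (vertical axis, with bars of 1 SE), against distance from the gene start in kb, for Notch1, Notch2 and Notch3 (rows) in NP, PCT, LOH and stroma 2 (columns). Filled points passed the BH-adjusted threshold of 0.05, and filled points lie on both sides of 0 in all panels but that of Notch3 in NP, where 1 peak was tested.

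The ligands were split between tissues. Jag1 was higher at P0 in LOH, with 158 and 150 CPM against 99.2, 94.4 and 93.6 (0.66 ± 0.12, edgeR adjusted p = 0.00117). With promoters alone the change was -0.0049, and the start peak was not called in LOH. The peak 17 kb into the gene had 6.14% and 5.52% in LOH at P0 and 0.508% and 0.221% in the P21 sample and P56 sample 2, with 0 of 1042 nuclei in P56 sample 1, which allows up to 0.288% (3.85 ± 0.59, edgeR adjusted p = 2.81e-06). In PCT the peak 17.9 kb in had 3.47% and 1.97% at P0 and 0.129%, 0.285% and 0.261% in adult (3.08 ± 0.52). The CNT call of Jag1 (0.81 ± 0.19) was lost without P0 sample 1 (0.55) and with promoters only (0.22, edgeR adjusted p = 0.56). Its podocyte call (0.62 ± 0.19) was lost without P0 sample 1 (adjusted p = 0.26), P56 sample 1 (adjusted p = 0.24) or the P21 sample (adjusted p = 0.078). In stroma 1, Jag1 was higher in adult (-0.67 ± 0.19) with values of 160, 182 and 89.4 CPM against 75.1 and 74.9, and this was lost without the P21 sample (adjusted p = 0.062) or either P0 sample.

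Dll1 moved in opposite directions along the nephron. In PCT it had 31.7 and 27.8 CPM at P0 and 56.9, 68.8 and 56.2 in adult (-1.14 ± 0.16, edgeR adjusted p = 0.0015), and in LOH 33.3 and 38.7 at P0 and 17.9, 18 and 13.7 in adult (1.13 ± 0.20, edgeR adjusted p = 0.00109). P0 and adult did not overlap in either. With promoters only, meaning peaks that overlap the 2 kb upstream of the start, neither call held, with -0.21 in PCT (edgeR adjusted p = 0.79) and -0.013 in LOH (0.98). That window holds the peak 1.41 kb upstream and not the peak 0.65 kb after the start. In LOH the latter had thinned shares of 2.43% and 3.02% at P0 and 1.24%, 1.23% and 0.773% in adult. In PCT it had 1.46% and 1.98% at P0 and 3.51%, 3.60% and 3.31% in adult. The peak 4.24 kb after the start showed the same split, with 6.4% and 2.33% at P0 and 9.80%, 10.9% and 13.5% in adult in PCT, and 2.68% and 2.45% against 0.254%, 0.096% and 0.221% in LOH. The LOH change of this peak (2.67 ± 0.66) was lost without P0 sample 1 (adjusted p = 0.13) or 2 (adjusted p = 0.058). In CNT, Dll1 was higher at P0 (1.32 ± 0.35), which was lost without P0 sample 1 (adjusted p = 0.23), and in stroma 1 it was higher in adult (-1.19 ± 0.31), which was lost without P0 sample 1 (adjusted p = 0.12) or 2 (adjusted p = 0.09). In stroma 1 all 5 stromal markers and 1 of 7 tested mural markers were higher at P0. There 3 of 5 tested proximal tubule, 2 of 2 LOH and 3 of the 7 mural markers were higher in adult. The part of these markers in the stroma 1 changes of Dll1, Jag1 and Dll4 was not tested.

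For Dll4 in endothelium the share and the fit differ in sign. Its start peak was open in a larger share at P0, but relative to all open calls it was higher in adult (-0.62 ± 0.24, edgeR adjusted p = 0.0474), and thinned shares were 4.34% and 4.45% at P0 and 6.55%, 4.41% and 8.71% in adult, which overlap. The gene sum had a change of -0.58 ± 0.18 (edgeR adjusted p = 0.0303). Each of these calls was lost without P0 sample 1, P0 sample 2, the P21 sample or P56 sample 2, and for the gene the changes were -0.62, -0.56, -0.61 and -0.38. Of the 8 endothelial markers, 7 were also higher in adult in endothelium, and their part in the change was not tested. In stroma 1, Dll4 had 9.68 and 12.1 CPM at P0 and 51.0, 37.0 and 20.5 in adult (-1.44 ± 0.37), and this was lost without P0 sample 1 (adjusted p = 0.1), P0 sample 2 (adjusted p = 0.055) or the P21 sample (adjusted p = 0.053). The endothelial markers there summed to 293 to 310 CPM at P0 and 357 to 508 in adult, with 1 of 6 tested higher in adult, and their part was not tested. In LOH, Dll4 was higher at P0 (0.66 ± 0.22), a call lost without P0 sample 1 (adjusted p = 0.14), P0 sample 2 (adjusted p = 0.26) or P56 sample 2 (adjusted p = 0.053).

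Some calls also depended on the tool or on depth. With DESeq2, 15 of the 63 named calls were lost (adjusted p from 0.061 to 0.36). They were Notch2 and Hes1 in NP, Notch1, Jag1 and Heyl in podocytes, Dll1 and Lfng in CNT, Jag1 and Lfng in stroma 1, Lfng in PST and endothelium, Hes1 in PC, Dll4 in LOH and 2 Dll4 peaks. With nuclei thinned to 1000 open peaks, 11 were lost and 23 kept (edgeR adjusted p of those lost from 0.077 to 0.69), and the rest of the 63 had no value. The lost gene calls were Notch2 in NP and PCT, Jag1 in podocytes and stroma 1, Heyl in PST, Lfng in PST and endothelium, Hes1 in PC and Dll4 in endothelium. With total open calls in place of TMM, 6 were lost, among them Lfng and Dll4 in endothelium and Notch2 in PCT.

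The stage change differed between cell types for all 10 genes by the interaction test of edgeR, with adjusted p from 1.48e-14 for Lfng to 0.0107 for Hey1, and 60.9% of the 17235 genes tested passed it. LOH had the most gene calls, 8 of 10 higher at P0 and Hes1 higher in adult, where 28.3% of all genes tested were higher at P0 and 22.6% higher in adult. Of its 75 member peaks tested, 37 were higher at P0 and 10 higher in adult, and 30.0% of all LOH peaks tested were higher at P0 and 24.5% higher in adult. The median change of the members there was 0.77, against 0.017 for all genes, and in CNT it was 0.74 against -0.041. In the same LOH nuclei the 6 progenitor markers were all called higher at P0, with sums of 146 to 166 CPM at P0 and 27.4 to 53.5 in adult. Of the stromal markers 5 of 5, of the podocyte markers 5 of 6, of the mural markers 6 of 8 and of the endothelial markers 4 of 8 were also called higher at P0 there. By contrast, 1 of the 8 mural markers and 2 of 2 LOH markers were called higher in adult. The part of these markers in the LOH calls was not tested. In CNT, 4 of 5 tested endothelial, 3 of 5 tested podocyte and 2 of 3 tested progenitor markers were higher at P0, and 1 of the 5 podocyte and 2 of 2 CNT markers were higher in adult. The part of these markers in the CNT calls was not tested either. In PCT, 4 of 8 endothelial, 3 of 6 podocyte and 3 of 6 progenitor markers were higher at P0, and 4 of 9 proximal tubule markers higher in adult. In PC, 3 of 6 tested endothelial, 3 of 5 tested podocyte and 3 of 5 tested progenitor markers were higher at P0, and all 3 PC markers higher in adult. Their part in the PCT and PC calls was not tested. In stroma 2, 3 of 5 tested progenitor and 3 of 8 endothelial markers were higher at P0. Of 5 tested proximal tubule markers there, 1 was higher at P0 and 3 in adult. In podocytes, 3 of 4 tested proximal tubule and 2 of 6 podocyte markers were higher in adult. In PST, 4 of 8 tested proximal tubule and 2 of 3 tested immune markers were higher in adult. The part of these markers was not tested. No member was called by edgeR in IC or immune nuclei, where the P0 samples had 40 to 99 nuclei each. At an unadjusted edgeR p under 0.05 there were 5 in IC and 0 in immune nuclei. The share of all genes at that cut is not given, so these counts are no result about the members. After adjustment few genes of any kind were called there, 1.36% higher at P0 and 0.387% higher in adult in IC, and 0.0236% and 0.0118% in immune nuclei. The lack of member calls is therefore no result about the members either.

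In the NP cluster, 5 of 5 tested progenitor markers and 5 of 5 tested mural markers were higher at P0. Of the tubule markers tested there, 2 of 2 for LOH, 1 of 1 for DCT and 2 of 4 for the proximal tubule were higher in adult, as were Hes1, Notch2 and the Notch1 peak at 34.3 kb. Another of the 4 proximal tubule markers, 1 of them, was higher at P0. The part of these markers was not tested, and the change of label content described above cannot be told apart from a change of stage within the same kind of nucleus.

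Other genes of the pathway were taken from a list of 46, which holds further ligands, ubiquitin ligases, co-activators and proteases. They gave 529 tests, with 68 higher at P0 (12.9%) and 75 higher in adult (14.2%), against 13.8% and 10.5% of the tests of all genes. Which direction had more calls depended on samples and settings. More were higher at P0 without either P0 sample, without P56 sample 2 (56 and 53), with total open calls (73 and 69), when thinned (24 and 22) and with BH over all cell types (76 and 72). More were higher in adult with DESeq2 (45 and 48), without the P21 sample (57 and 66) and without P56 sample 1 (82 and 105). The genes named next, apart from Notch4, were picked from the 46 for having the most calls. How many of all genes are called in as many cell types was not counted, so they do not stand for the list. Dtx1, a ubiquitin ligase that binds Notch, was higher at P0 in all 12 cell types tested, with log2 fold changes from 1.09 in DCT to 2.11 in podocytes, and in 7 without either P0 sample. Dner, a membrane protein related to the ligands, was higher at P0 in 9 of 13 (6 without P0 sample 1), with 2.05 ± 0.24 in LOH and 2.19 ± 0.42 in CNT. Neurl1b, a ubiquitin ligase of the ligands, was higher in adult in 11 of 13, with -2.30 ± 0.16 in NP, and its paralogue Neurl1a was higher at P0 in 7. Numb, an inhibitor of Notch, was higher in adult in 7 cell types but in 2 without either P0 sample, and Maml1, a co-activator, in 6 but in 0 without P0 sample 1 and 1 without P0 sample 2. The endothelial receptor gene Notch4 was higher in adult in endothelium (-0.79 ± 0.15, edgeR adjusted p = 0.0032), where 7 of the 8 endothelial markers were too, and in stroma 2 (-0.48 ± 0.13). Without P0 sample 1 neither was called (adjusted p = 0.094 and 0.14), and without P0 sample 2 that in stroma 2 was not (adjusted p = 0.24).

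The genes with the profile most like a member's were found by Pearson's r of log2 CPM over the 65 sums of 13 cell types and 5 samples, among 16254 protein-coding genes that share no peak with it. These sums share libraries, so r is a description. For Notch1 they were Adam15 (r = 0.743), Egfl7 (0.718) and Scarb1 (0.714), and Egfl7, an endothelial gene, starts 63.4 kb from Notch1 on the same chromosome. Lfng was closest to Rcsd1 (0.884), Ksr1 (0.854) and Myadm (0.852), and among those close to Hes1 were Gm49337 (0.781) and Cuedc1 (0.777). Dll4 was closest to Glod4 (0.803), Vps53 (0.742) and 2900026A02Rik (0.740). Dll1 was closest to Fam171a1 (0.775), Notch3 and Jag1 both to Wnt9a (0.779 and 0.666), Heyl to Adra1d (0.788), Notch2 to Pxylp1 (0.673) and Hey1 to Lca5l (0.670).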

How the data were processed

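Nuclei were mapped to samples, stages and clusters by the deposited metadata. Per the methods, the authors aligned snATAC-seq reads to mm10, filtered barcodes, clustered nuclei with SnapATAC and named clusters from markers, and the submitters' processing notes list Cell Ranger ATAC 1.1.0 and MACS2. The deposited counts are binary open calls per nucleus and peak, which the authors did not scale for depth. The authors' peaks come from fragments pooled by cell type and then merged, so low peaks of rare types can be missing. Doublets were not searched for here.

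Open calls were summed per sample and cell type (at least 20 nuclei), filtered with filterByExpr (minimum count 10, minimum total 15), scaled by TMM and fitted by edgeR 4.0.16 (glmQLFit, glmQLFTest) in R 4.3.3. SE is the absolute log2 fold change over the root of F. The difference in stage change between cell types was an F test on 12 df with the sample as a block. Alternatives included DESeq2 1.42.0, thinned nuclei, total open calls and promoters only. Promoters only took the peaks that overlap the 2 kb upstream of the annotated gene start, so start peaks that lie wholly inside a gene were left out. The test was tried on simulated data. Thinned shares are exact expectations at 1000 open peaks, without shallower nuclei. A count of 0 allows up to 3 counts, which covers counting error only. With 2 P0 samples, leaving out 1 leaves a lone sample assumed to vary like the adult ones.

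Members, gene lists and tests were chosen with earlier results of these data known. All members were named at gene level. Peaks were named if they were the most open start peak, had the largest gap between the highest and the next cell type, or were among up to 2 peaks a gene with the largest called change, no overlap and a share of at least 2%. Further peaks of the receptors, Jag1 and Heyl were named after their values were seen. Some results of peaks named by the rule are not described above, though their calls are among the 63. They include, as log2 fold changes in CNT, the Notch3 peak 0.85 kb in (3.09) and the Lfng peak 3.85 kb in (2.39). In PCT they include the Hes1 peak 0.94 kb upstream (-1.40) and the Dll4 peak 1.58 kb in (-1.14). Each of these calls was lost under some alternative. The rule also named up to 8 pathway genes with the most calls, with a tie after the first 7, of which 1 is not reported here, and Notch4 was added after its values were seen. The scRNA-seq and bulk ATAC-seq data were not used here.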

Additional observations from a re-analysis of the deposited data

Results flagged for a closer look

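The change from P0 to adult differed between the 13 cell types for all 10 genes by a test of the difference itself (edgeR quasi-likelihood F test over 12 df, BH over 17235 genes), as it did for 60.9% of the genes tested. The adjusted p of this test was 1.52e-08 for Notch1, 4.92e-05 for Notch2 and 8.36e-10 for Notch3. It was 4.64e-05 for Jag1, 5.06e-13 for Dll1 and 5.98e-05 for Dll4. For Lfng it was 1.48e-14, and for the targets 3.68e-05 for Hes1, 0.0107 for Hey1 and 4.00e-10 for Heyl. Dll1 in PCT and LOH and Lfng in LOH and stroma 2 were called in opposite directions. With nuclei thinned to 1000 open peaks, 7 of the 10 passed, and 8 passed without either P0 sample.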

How the results depend on the processing

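Of 63 named results, 22 kept their direction and their call under each alternative run for them, which were 12 to 16 by result since some alternatives are for genes only or gave no value, among them Heyl and Lfng in NP, LOH and PCT, Hes1 in PCT, Notch1 in LOH and Notch3 in LOH and CNT. Some of the 22, such as the Heyl peak 6.35 kb after the start in NP, had no value with thinned nuclei. With promoters only, 3 reversed without a call, Jag1 in podocytes to -0.035, Jag1 in LOH to -0.0049 and Dll1 in LOH to -0.013. A further 12 gene calls were lost in the same direction and 20 were kept. The 12 were Hes1 in NP, LOH and PC, Notch2 in NP and PCT, Dll4 in LOH and endothelium, Jag1 in CNT and stroma 1, Dll1 in PCT, Lfng in PST and Notch1 in PC. The member peaks, 113 higher at P0 and 54 higher in adult, became 71 and 35 with DESeq2 and 16 and 11 with nuclei thinned to 1000 open peaks, where fewer counts are left. Leaving out 1 sample gave 43 to 124 and 24 to 88. The member genes, 30 and 14, became 16 and 5 when thinned, 16 and 4 with promoters only, and 9 higher in adult with DESeq2, and 16 to 28 and 2 to 20 without 1 sample. The pathway genes, 68 and 75, became 45 and 48 with DESeq2 and 24 and 22 when thinned, and 30 to 82 and 14 to 105 without 1 sample. The cause of these moves was otherwise not tested. By share of nuclei 0 genes had the same leading cell type in all 5 samples, by thinned share 3, by CPM 2, and without 1 sample 0 to 2. The interaction calls ranged from 8 to 10 without 1 sample.

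The labels number replicates within a stage, and P0 sample 1 and P56 sample 1 share a number but come from animals of different ages. Whether these samples share a step of preparation or sequencing was not tested. Their deviations correlated at r = 0.376 over 16568 genes. A replicate block, added after seeing the data, gave 108 and 55 calls for peaks, 28 and 15 for genes and 68 and 68 for pathway genes. With the block 3 of the 63 calls were lost, Notch2 in NP, Notch1 in podocytes and Lfng in stroma 1 (edgeR adjusted p = 0.081, 0.11 and 0.058). Using total open calls moved the median change of all genes by 0.12 in both PCT and LOH. With 2 P0 samples, 33 of the 63 calls were lost without P0 sample 1 and 24 without P0 sample 2.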
